A study of Mus musculus with 6 samples.

Results

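The protein-folding and quality-control machinery of the endoplasmic reticulum (ER) was examined in mouse embryonic fibroblasts (MEFs) by RNA sequencing. It was represented by 44 listed genes, taken by symbol from the 18134 gene names of the deposited tables, with rows that share a name summed. They fall into 15 chaperones and cochaperones, 14 genes grouped as disulfide enzymes, and 15 genes of ER-associated degradation (ERAD). The disulfide class holds enzymes that make or break disulfide bonds and related proteins such as Erp29, which lacks the active-site cysteine pair. A row was present for 43 of them, Fkbp2 not being analysed here, and 42 passed the filter on low counts among the 12224 genes tested. The exception, Derl3, had only 5, 0 and 0 counts in Ufl1-ko, against 1, 7 and 1 counts in NC. The study profiled total RNA from 3 MEF libraries with the genotype Ufl1-ko and 3 control libraries titled NC, an abbreviation that the labels do not spell out. Ufl1 encodes the ligase that attaches the ubiquitin-like protein UFM1 to other proteins at the ER. Knockdown and hypoxia appear in the title of the series, whereas each library's label states a genotype and no oxygen condition. The comparison is therefore by genotype, and any treatment that all 6 libraries share is not known. The labels name no cell line, clone, allele or separate cultures. A difference between 2 lines therefore cannot be told apart from one between genotypes, and the p-values measure only the spread between these libraries.

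Proteins that enter the secretory pathway fold in the ER with the help of chaperones such as the Hsp70 protein BiP, the lectins calnexin and calreticulin, and the protein disulfide isomerases. Chains that fail to fold are recognised, passed back to the cytosol, ubiquitylated and degraded by the proteasome, the process called ERAD. When unfolded proteins accumulate, the sensors IRE1, PERK and ATF6 start the unfolded protein response (UPR), a programme best known for raising many of these genes together. In fibroblasts, which secrete collagen, several of them also serve collagen folding and hydroxylation.

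Total counts ran from 17472432 to 21831860 in the Ufl1-ko libraries, against 15887011 to 19779066 in the NC libraries. Ufl1 itself had 71, 69 and 102 counts in Ufl1-ko, against 382, 497 and 396 counts in NC, and its level fell to 14.9% of NC (log2 fold change -2.75, SE 0.15). NC replicate 1 stood apart. Its chi-square per gene was 29.9 against NC replicate 2 and 22.5 against NC replicate 3, where all other replicate pairs gave 2.35 to 3.95. Of the 12 fibroblast markers 11 were tested, 1 rose and 9 fell, with a summed level of 6292 to 6512 CPM (counts scaled to a common library total) in Ufl1-ko, against 11655 to 12454 CPM in NC. Lum was near 0 and Thy1 below 1 CPM. Epithelial markers summed to 297 to 309 CPM in Ufl1-ko, against 261 to 359 CPM in NC, nearly all of it Krt18. Krt18 did not pass the threshold, whereas the less abundant Cdh1 rose (log2 fold change 0.70). Immune markers summed to 16.0 to 21.4 CPM in Ufl1-ko, against 31.0 to 33.8 CPM in NC, mostly Cd68. Cd68 (log2 fold change -0.84) and Lyz2 (-0.79), the 2 immune markers tested, both fell, and Cd3e was at 0 in every library. Endothelial, muscle, neural and pluripotency markers each summed to at most 16.3 CPM in Ufl1-ko, against at most 25.3 CPM in NC. Among them Pecam1 (log2 fold change -2.81, at most 1.20 CPM in any library), Des (-0.58) and Map2 (-0.48) fell, and none rose. In bulk RNA, fewer cells of a type and less RNA per cell cannot be told apart, and the part of the marker shift in the results that follow was not tested.

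Of the 42 ER genes tested, 26 rose and 5 fell in Ufl1-ko, and 11 did not pass the threshold (adjusted p under 0.05 in edgeR's quasi-likelihood test). The background was high, since 33.3% of all genes tested rose and 33.4% fell, 66.7% in all. Among the members the share that rose was 61.9% and the share that fell 11.9%. Their median log2 fold change (Ufl1-ko over NC) was 0.38, where that of all genes tested was 0.00. With a change of at least 1.5-fold, 15 members rose and 4 fell, where 18.0% of all genes did the one and 20.2% the other. With at least 2-fold, 6 members rose (Hyou1, Selenos, Manf, Creld2, Dnajb11 and Dnajc3) and 1 fell (Ero1a), against a background of 7.19% higher and 10.1% lower. In GRCm38 (GENCODE M21 annotation) these genes lie at chr9:44379490-44392369 (Hyou1), chr7:66079649-66089405 (Selenos), chr9:106888753-106891938 (Manf), chr15:88819646-88826681 (Creld2), chr16:22857845-22879634 (Dnajb11), chr14:118937932-118981702 (Dnajc3) and chr14:45283087-45318572 (Ero1a). In 26 members every Ufl1-ko library lay above every NC library, in 5 every one lay below, and in 11 the groups overlapped. Among all genes tested, 36.2% had no overlap with Ufl1-ko above and 35.5% with Ufl1-ko below, 71.7% in all.

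The 3 classes had similar medians and each held genes that fell. Of 14 chaperones and cochaperones tested, 9 rose, 1 fell and 4 missed the threshold (median log2 fold change 0.40). Of 14 disulfide enzymes, 9 rose, 3 fell and 2 missed it (median 0.41). Of 14 ERAD genes tested, 8 rose, 1 fell and 5 missed it (median 0.36). Scaling bears on these values. By library size alone the median of all genes was 0.18 and that of the members 0.56, and 32 members rose and 5 fell, where 43.9% of all genes rose and 25.5% fell. NC replicate 1 lay above both other NC libraries for 24 of the 42 members and below both for 13, where the shares over all genes were 41.4% above and 42.0% below. Without it the members' median was 0.49, 27 members rose and 7 fell, 3 of the 7 being chaperones or cochaperones (Sil1, Hsp90b1 and Ppib). Calls were then more frequent in general, with 38.6% of all genes that rose and 37.1% that fell.

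**Figure D1:**
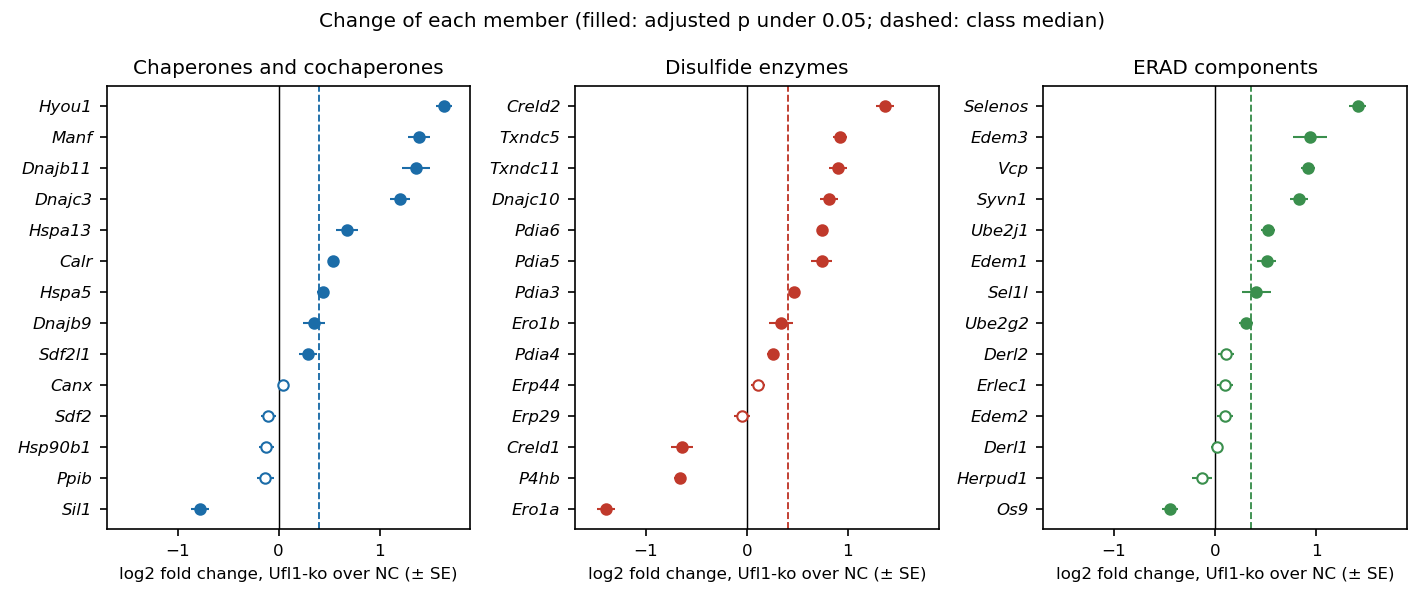
Log2 fold change (Ufl1-ko over NC, x axis) of the 42 ER genes tested, grouped by class, with bars of 1 SE, filled points for genes past the threshold and a dashed line at each class median (3 libraries each). Hyou1 at 1.64 is the highest and Ero1a at -1.39 the lowest.

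Many ER chaperone genes carry ER stress response elements in their promoters, which the UPR factors ATF6 and XBP1 bind together with NF-Y. Promoter windows from RefSeq (assembly GRCm38.p6, 250 bases before to 50 after a start) were matched by symbol for 36 of the 44 genes, in 44 windows. Both strands were searched for 4 motifs. The ER stress response element (ERSE) is CCAAT, 9 bases of any kind and CCACG. ERSE-II is ATTGG, 1 base of any kind and CCACG. The UPR element (UPRE) is TGACGTGG, and ACGTG is the core of the hypoxia response element, which the UPRE letters contain. ERSE was in 10 of the 36 genes (27.8%), against 0.137% of all 27025 genes with a window and 0.173% of those among the genes tested. The shares over all genes include the members. Since such elements are known from ER chaperone genes, the higher share among the members is description and no test. Hyou1, Selenos and Manf rose more than any ERSE-bearing member tested. The window of Selenos held no ERSE match. Hyou1 and Manf gave no match either, which does not show absence for a gene without a window. The 11 copies, with Hsp90b1 holding a pair, are printed here because their genes range from members that rose at least 2-fold to genes that did not pass the test. Each is shown in the direction of the motif with the ERSE in capitals and 10 bases on either side.
Calr: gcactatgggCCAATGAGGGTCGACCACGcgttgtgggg
Canx: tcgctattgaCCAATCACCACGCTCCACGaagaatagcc
Creld2: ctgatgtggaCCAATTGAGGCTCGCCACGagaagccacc
Derl3: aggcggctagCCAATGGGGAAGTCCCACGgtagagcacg
Dnajc3: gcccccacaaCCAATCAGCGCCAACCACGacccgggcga
Ero1b: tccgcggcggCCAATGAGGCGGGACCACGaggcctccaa
Hsp90b1 upstream element: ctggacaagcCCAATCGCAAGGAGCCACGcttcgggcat
Hsp90b1 downstream element: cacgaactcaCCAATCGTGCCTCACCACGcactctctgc
Hspa5: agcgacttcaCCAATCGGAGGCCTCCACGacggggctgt
Pdia6: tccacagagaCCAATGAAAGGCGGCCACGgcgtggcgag
Syvn1: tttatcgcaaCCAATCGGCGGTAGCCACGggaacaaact
The first base of the element lay between 44 and 212 bases before the start in each gene. In the assembly, the stretch shown for Hspa5 is chr2:34772015-34772053 (plus strand), for Creld2 chr15:88819510-88819548 (minus strand), for Dnajc3 chr14:118937817-118937855 (plus strand), and for Syvn1 chr19:6046522-6046560 (plus strand). The stretch of Calr is chr8:84847065-84847103 (plus strand) and that of Pdia6 is chr12:17266481-17266519 (plus strand). The upstream stretch of Hsp90b1 is chr10:86705628-86705666 (minus strand) and its downstream one is chr10:86705523-86705561 (plus strand). Canx has chr11:50325790-50325828 (minus strand), Ero1b chr13:12565672-12565710 (minus strand) and Derl3 chr10:75893232-75893270 (minus strand).

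Of the 9 ERSE-bearing members tested, 7 rose and 0 fell, and their log2 fold changes ran from -0.12 to 1.37 around a median of 0.54. The lowest of them was Hsp90b1, with both copies, and the highest Creld2, with a single copy. Of the 25 tested members with a promoter window and no ERSE, 15 rose and 4 fell, with a median of 0.35. Over all members tested 61.9% rose and 11.9% fell, and over all genes tested 33.3% rose and 33.4% fell. These groups are small, and no difference between them was tested. Genes that rose and genes that did not pass were present both with and without ERSE letters. Outside the list, 7 tested genes held ERSE letters, of which 0 rose, where 33.3% of all genes did. The 3 that fell, where 33.4% of all genes did, were Spats2l (log2 fold change -1.38), Acacb (-1.28) and Pan2 (-0.62). One of the 7, Alg12, shares its promoter stretch with Creld2, their starts lying 328 bases apart. Alg12, a mannosyltransferase of N-glycan assembly, had 9.77, 10.5 and 8.39 CPM in Ufl1-ko, against 9.61, 12.8 and 12.7 CPM in NC, and did not pass (log2 fold change -0.29, adjusted p = 0.103). Creld2, on the other side of that stretch, was among the members that rose most.

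ERSE-II letters occurred in 2 of the 36 genes (5.56%), against 0.0444% of all genes with a window and 0.0864% of those tested, and these gave different values. Dnajb11 rose 2.57-fold, whereas Herpud1 did not pass the threshold. Counted from the annotated start, the Dnajb11 copy lay past it, at bases 7 to 17, and the Herpud1 copy before it, at bases -52 to -42. Both are printed in the direction of the gene with the element in capitals and 5 bases on either side. The stretches are chr16:22857847-22857867 and chr8:94386372-94386392 (plus strand).
Dnajb11: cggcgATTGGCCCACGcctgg
Herpud1: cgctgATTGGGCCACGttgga
UPRE letters were found in Txndc11, Txndc5, Ube2j1 and Vcp (11.1% of the 36 genes), against 0.714% of all genes with a window and 1.04% of those tested. Each of these genes rose, where 61.9% of the members tested and 33.3% of all genes tested did. The short core ACGTG was in 20 of the 36 genes (55.6%), against 21.8% of all genes with a window and 29.7% of those tested. It is the commonest of the 4 motifs and was held both by Ero1a and by Selenos, which moved in opposite directions. A match describes letters in a window and does not show binding.

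The upstream 250 bases of Hsp90b1, Creld2 and Ero1a are given in full because these genes show a chaperone with a pair of ERSE copies that did not pass the test, the disulfide gene that rose most, and the gene that fell most. Capitals mark ERSE in either direction in Hsp90b1 (chr10:86705445-86705694, minus strand) and Creld2 (chr15:88819396-88819645, plus strand), and the core ACGTG, here read as CACGT, in Ero1a (chr14:45318573-45318822, minus strand).
Hsp90b1: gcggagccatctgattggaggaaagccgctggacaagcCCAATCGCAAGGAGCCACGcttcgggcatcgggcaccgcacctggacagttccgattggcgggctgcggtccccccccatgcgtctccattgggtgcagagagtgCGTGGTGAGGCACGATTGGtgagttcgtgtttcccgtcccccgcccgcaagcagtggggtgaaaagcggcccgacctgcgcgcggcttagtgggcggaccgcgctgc
Creld2: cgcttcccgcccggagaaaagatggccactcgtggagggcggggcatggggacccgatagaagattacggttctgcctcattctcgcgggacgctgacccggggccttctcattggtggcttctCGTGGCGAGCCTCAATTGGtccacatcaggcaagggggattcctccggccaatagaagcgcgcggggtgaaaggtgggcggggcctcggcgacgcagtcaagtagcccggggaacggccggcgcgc
Ero1a: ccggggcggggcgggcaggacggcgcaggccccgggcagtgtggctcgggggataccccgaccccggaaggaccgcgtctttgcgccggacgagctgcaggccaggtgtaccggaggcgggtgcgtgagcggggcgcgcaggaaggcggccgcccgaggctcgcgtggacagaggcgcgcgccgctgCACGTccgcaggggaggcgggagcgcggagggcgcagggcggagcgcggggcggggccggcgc

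**Figure D2:**
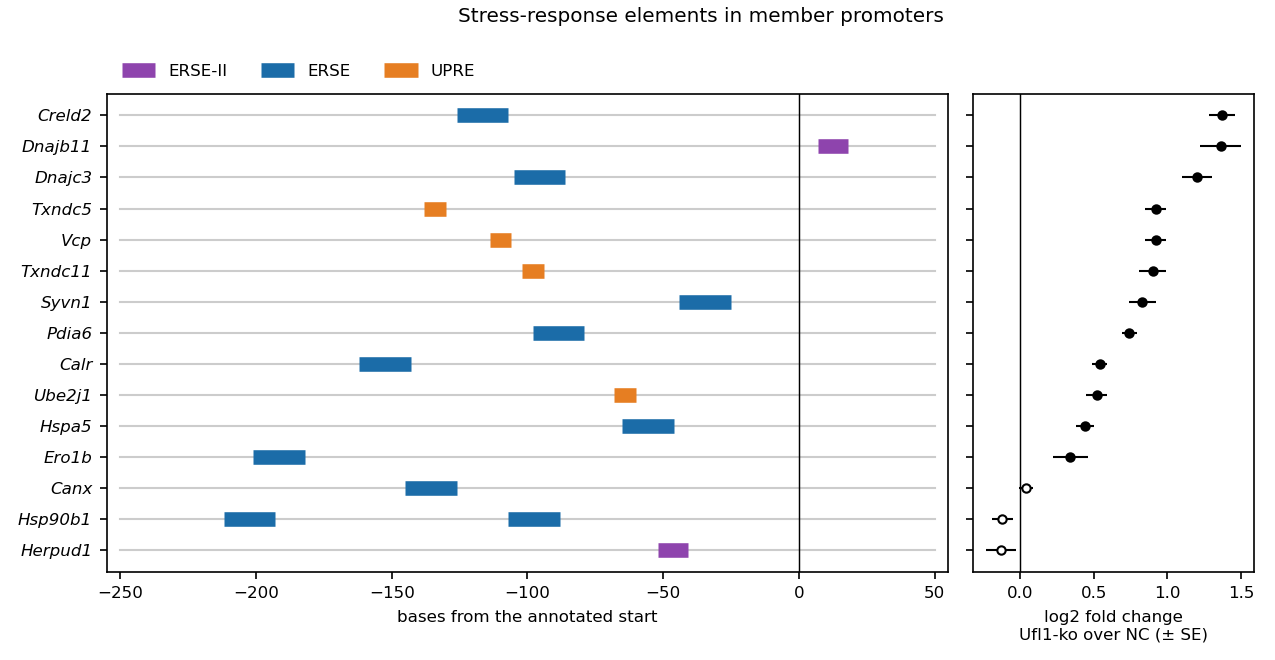
Position of ERSE, ERSE-II and UPRE letters in the promoter windows of the 15 tested members that hold one (left, in bases from the annotated start) beside each gene's log2 fold change, Ufl1-ko over NC, with bars of 1 SE and filled points for genes past the threshold (right). Creld2, Dnajb11 and Dnajc3 lie at the top, and Canx, Hsp90b1 and Herpud1, all 3 not past the threshold, at the bottom.

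Among the chaperones, the Hsp70 system around BiP moved unevenly, and several partners had larger log2 fold changes than BiP. Hspa5, which encodes BiP, had 1191, 1279 and 1216 CPM in Ufl1-ko, against 957, 849 and 905 CPM in NC. The groups did not overlap, and Hspa5 rose 1.36-fold (log2 fold change 0.44, SE 0.06, adjusted p = 0.000256). Hyou1, the large Hsp70 relative that also exchanges nucleotide on BiP, had 213, 223 and 199.5 CPM in Ufl1-ko, against 73.2, 63.6 and 66.4 CPM in NC. Every Ufl1-ko library was far above every NC library, and its 3.13-fold rise was the largest of all 42 members (log2 fold change 1.64, SE 0.08, adjusted p = 6e-07). Sil1 encodes the other nucleotide exchange factor of BiP and went the opposite way. It had 49.0, 45.1 and 52.2 CPM in Ufl1-ko, against 74.7, 92.4 and 83.9 CPM in NC, with no overlap between the groups, and fell to 58.3% of NC (log2 fold change -0.78, SE 0.09, adjusted p = 0.000101). It was the only chaperone or cochaperone gene of the list to fall.

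J-domain proteins stimulate the ATPase of BiP and bring clients to it. Dnajb11 (ERdj3), a soluble J protein that binds unfolded chains, had 119, 126 and 115 CPM in Ufl1-ko, against 58.8, 41.4 and 39.6 CPM in NC. The groups were clearly apart, and Dnajb11 rose 2.57-fold (log2 fold change 1.36, SE 0.14, adjusted p = 3.27e-05). Dnajc3 (p58IPK) had 138, 151 and 133 CPM in Ufl1-ko, against 69.7, 55.8 and 57.8 CPM in NC. All Ufl1-ko libraries were above all NC libraries, a 2.30-fold rise (log2 fold change 1.20, SE 0.10, adjusted p = 8.78e-06). Dnajb9 (ERdj4), which draws BiP to the sensor IRE1, had 42.4, 39.0 and 37.2 CPM in Ufl1-ko, against 36.4, 29.1 and 27.4 CPM in NC. The groups came close without overlapping, and the rise was small (log2 fold change 0.35, SE 0.11, adjusted p = 0.0218). Its call ended when either of Ufl1-ko replicates 1 and 2 or of NC replicates 2 and 3 was left out, with an adjusted p of up to 0.0898. The J protein Dnajc10, which is also a disulfide reductase, is described with the oxidoreductases.

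Manf, a small ER protein that binds BiP and can be secreted, had 83.5, 86.8 and 79.9 CPM in Ufl1-ko, against 37.1, 30.3 and 27.7 CPM in NC. The NC libraries were the lower group throughout, and Manf rose 2.63-fold (log2 fold change 1.39, SE 0.11, adjusted p = 7.04e-06). Hspa13, an atypical Hsp70 that lacks the peptide-binding domain, had 133, 143 and 131 CPM in Ufl1-ko, against 99.6, 73.4 and 81.7 CPM in NC. Again the groups did not overlap (log2 fold change 0.68, SE 0.11, adjusted p = 0.000435). Sdf2l1 and Sdf2 encode related proteins that work with BiP and its J proteins. Sdf2l1 had 20.4, 22.2 and 22.4 CPM in Ufl1-ko, against 18.4, 17.9 and 16.7 CPM in NC and rose (log2 fold change 0.29, SE 0.09, adjusted p = 0.0166), but lost its call without Ufl1-ko replicate 2, Ufl1-ko replicate 3 or NC replicate 3, with an adjusted p of up to 0.0645. Sdf2 had 45.5, 42.2 and 45.1 CPM in Ufl1-ko, against 45.4, 48.2 and 49.0 CPM in NC. These values overlapped and did not pass (log2 fold change -0.10, adjusted p = 0.247).

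Hsp90b1, the Hsp90 of the ER (GRP94), is commonly raised together with BiP in ER stress. It had 2958, 3049 and 2993 CPM in Ufl1-ko, against 2939, 3495 and 3316 CPM in NC. The groups overlapped through NC replicate 1, the lowest NC library, and the log2 fold change was -0.12, SE 0.07, with an adjusted p of 0.174. Without NC replicate 1 Hsp90b1 was called lower (log2 fold change -0.17, adjusted p = 4.4e-05), whereas scaling by library size turned the sign to 0.06 with no call. Ppib, the ER cyclophilin that isomerises proline bonds in collagen and other clients, had 164, 164 and 166 CPM in Ufl1-ko, against 159, 198 and 185 CPM in NC. Its log2 fold change was -0.13, SE 0.08 and did not pass (adjusted p = 0.185), but without NC replicate 1 it was called lower (-0.21, adjusted p = 0.000439).

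The lectin chaperones, which hold monoglucosylated glycoproteins, differed from each other. Calr, the soluble calreticulin, had 988, 1009.6 and 967 CPM in Ufl1-ko, against 676, 703 and 665 CPM in NC. No NC library reached the lowest Ufl1-ko library, and Calr rose 1.45-fold (log2 fold change 0.54, SE 0.05, adjusted p = 3.28e-05). Its value is the sum of 2 rows that share the name. Canx, the membrane-bound calnexin, had 789, 804 and 795 CPM in Ufl1-ko, against 746, 796 and 781 CPM in NC. Its groups overlapped and it did not pass (log2 fold change 0.04, SE 0.05, adjusted p = 0.534).

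**Figure D3:**
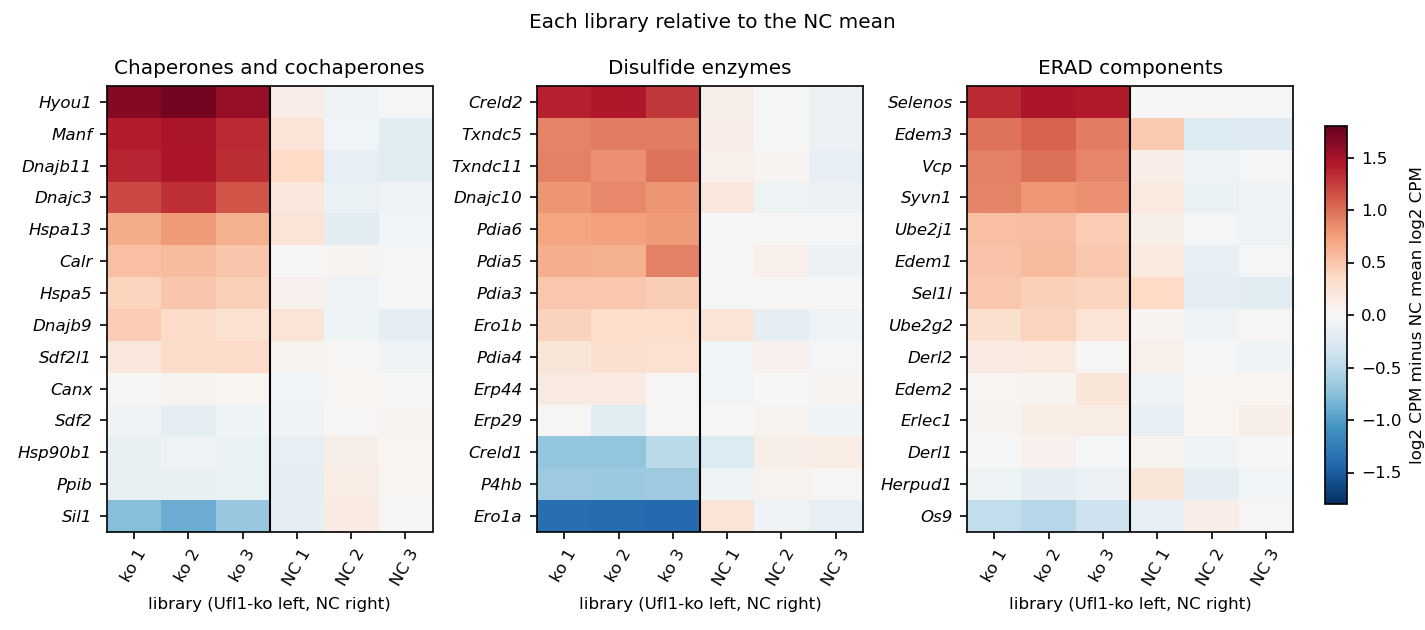
Log2 CPM of each tested member in each of the 6 libraries minus its mean log2 CPM in NC, in colour, with Ufl1-ko libraries left of NC libraries and 1 panel per class. Ero1a, P4hb, Creld1, Sil1 and Os9 are lower in all 3 Ufl1-ko libraries than in any NC library, and 26 members are higher.

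The disulfide enzymes held both the member that fell most and, by FPKM, the most abundant one. Disulfide bonds are made by protein disulfide isomerases, which pass electrons to the oxidases ERO1-alpha and ERO1-beta. Ero1a, which is known to be raised by hypoxia, had 2068, 2028 and 1992 CPM in Ufl1-ko, against 6169, 4983 and 4766 CPM in NC. The Ufl1-ko libraries were all far below the NC libraries, and Ero1a fell to 38.2% of NC (log2 fold change -1.39, SE 0.09, adjusted p = 3.62e-06). Ero1b, the form known as a UPR target and abundant in secretory cells such as those of the pancreas, had 21.9, 20.4 and 20.6 CPM in Ufl1-ko, against 19.5, 14.5 and 15.7 CPM in NC. It rose by a small amount (log2 fold change 0.34, SE 0.12, adjusted p = 0.0294), and the call ended without any of the Ufl1-ko replicates or without NC replicate 2 or 3, with an adjusted p of up to 0.102. In FPKM, a length-corrected level, Ero1b averaged 5.74 ± 0.189 FPKM in Ufl1-ko and 4.18 ± 0.699 FPKM in NC, against 536 ± 6.42 FPKM in Ufl1-ko and 1171 ± 137 FPKM in NC for Ero1a (SD, n = 3 each).

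P4hb encodes protein disulfide isomerase itself, which is also the beta subunit of collagen prolyl 4-hydroxylase. It had 3248, 3207 and 3262 CPM in Ufl1-ko, against 4819, 5341 and 5192 CPM in NC. The groups did not overlap, and P4hb fell to 63.3% of NC (log2 fold change -0.66, SE 0.06, adjusted p = 1.58e-05). All 4 genes of the list named Pdia rose, where 61.9% of the members tested and 33.3% of all genes tested did. That group is set by name alone, and P4hb, the isomerase outside it, fell. Pdia6 (P5) had 295, 299.9 and 306 CPM in Ufl1-ko, against 180.5, 182 and 177 CPM in NC. Every Ufl1-ko library was above every NC library (log2 fold change 0.74, SE 0.05, adjusted p = 5.8e-06). Pdia5 had 53.9, 53.5 and 63.9 CPM in Ufl1-ko, against 34.5, 36.5 and 31.7 CPM in NC. It too showed no overlap (log2 fold change 0.74, SE 0.10, adjusted p = 0.000153). Pdia3 (ERp57), which works with the lectin chaperones, had 1179.9, 1190.2 and 1156 CPM in Ufl1-ko, against 830.4, 862 and 848 CPM in NC. Although the groups were apart, its rise was smaller (log2 fold change 0.47, SE 0.05, adjusted p = 5.39e-05). Pdia4 (ERp72) had 262, 274 and 273 CPM in Ufl1-ko, against 217, 237 and 222 CPM in NC, the smallest rise of the Pdia genes (log2 fold change 0.26, SE 0.06, adjusted p = 0.00426).

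Among other members with thioredoxin-like domains, Txndc5, Txndc11 and Dnajc10 rose, whereas Erp44 and Erp29 did not pass the threshold. Txndc5 (ERp46), an efficient maker of disulfide bonds, had 424, 434 and 434 CPM in Ufl1-ko, against 247, 225 and 211 CPM in NC. There was no overlap (log2 fold change 0.92, SE 0.07, adjusted p = 5.85e-06). Txndc11, an ER-membrane thioredoxin-domain protein, had 43.8, 41.6 and 46.4 CPM in Ufl1-ko, against 25.1, 24.3 and 21.2 CPM in NC. The Ufl1-ko group was again the higher one throughout (log2 fold change 0.90, SE 0.09, adjusted p = 3.39e-05). Dnajc10 (ERdj5), which reduces disulfides in chains bound for degradation, had 287, 301 and 288 CPM in Ufl1-ko, against 191, 155 and 154 CPM in NC. Its groups were apart as well (log2 fold change 0.81, SE 0.09, adjusted p = 5.09e-05). Erp44, which retains ERO1 and unassembled clients in the early secretory pathway, had 104, 103 and 94.8 CPM in Ufl1-ko, against 89.7, 93.6 and 96.2 CPM in NC. The groups overlapped and Erp44 did not pass (log2 fold change 0.11, SE 0.07, adjusted p = 0.176). Erp29, which has no active-site cysteine pair, had 71.7, 61.7 and 72.1 CPM in Ufl1-ko, against 71.0, 74.2 and 67.2 CPM in NC and did not pass either (log2 fold change -0.05, SE 0.08, adjusted p = 0.63).

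The Creld pair of epidermal growth factor-like disulfide proteins moved in opposite directions. Creld2, the soluble form and a known ER stress gene, had 48.0, 49.6 and 44.3 CPM in Ufl1-ko, against 19.8, 18.3 and 17.0 CPM in NC. The lowest Ufl1-ko library was above the highest NC library, and Creld2 rose 2.58-fold (log2 fold change 1.37, SE 0.09, adjusted p = 3.14e-06). Creld1, the membrane-bound form, had 53.5, 52.6 and 61.5 CPM in Ufl1-ko, against 72.9, 93.04 and 94.7 CPM in NC. All Ufl1-ko libraries were below all NC libraries, and Creld1 fell to 64.3% of NC (log2 fold change -0.64, SE 0.11, adjusted p = 0.000854).

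The sum of the disulfide class turned on Ero1a and P4hb, its most abundant members. Summed FPKM of the 14 disulfide enzymes was 2914 ± 41.5 in Ufl1-ko and 3570 ± 104 in NC (SD, n = 3 each). Without Ero1a and P4hb the other 12 summed to 1168 ± 12.03 FPKM in Ufl1-ko and 729.9 ± 16.2 FPKM in NC. The sum was thus lower in Ufl1-ko with the pair and higher without it. The 14 chaperones with a row summed to 2853 ± 39.4 FPKM in Ufl1-ko and 2257 ± 83.6 FPKM in NC. The 15 ERAD genes summed to 583.2 ± 6.22 FPKM in Ufl1-ko and 389 ± 17.5 FPKM in NC. Over all 43 genes the sums lay close together, at 6350.4 ± 27.2 FPKM in Ufl1-ko and 6216 ± 122 FPKM in NC. In CPM, which is not corrected for length and is scaled by TMM where the FPKM is not, the same sum was 16849 ± 163 in Ufl1-ko and 19928 ± 452 in NC. The members differed in level over a wide range, with P4hb first in both groups. Behind it came Hsp90b1 (1122 ± 15.03 FPKM), Ero1a (536 ± 6.42 FPKM), Calr (478 ± 6.71 FPKM) and Hspa5 (473 ± 17.1 FPKM) in Ufl1-ko. In NC the order was Ero1a (1171 ± 137 FPKM), Hsp90b1 (1074 ± 83.6 FPKM), Hspa5 (310.3 ± 17.3 FPKM) and Calr (291 ± 9.02 FPKM). Means ± SD overlapped between Calr and Hspa5 in both groups, and between Ero1a and Hsp90b1 in NC.

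**Figure D4:**
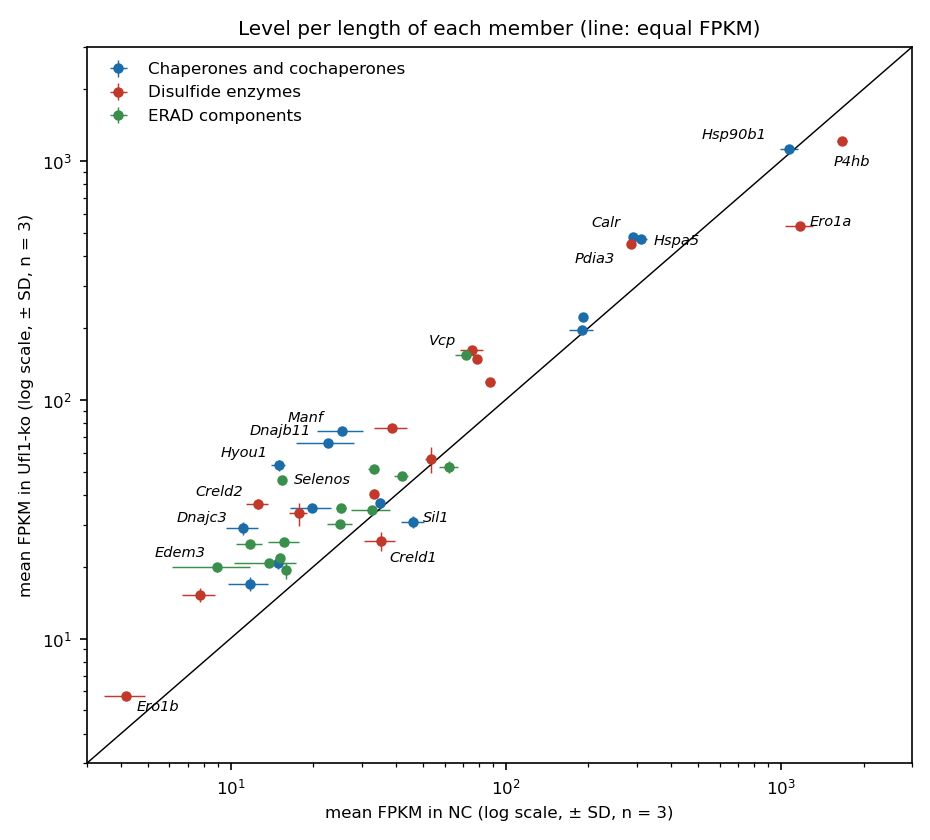
Mean FPKM of each tested member in Ufl1-ko (y axis) and NC (x axis), both on log scales with bars of 1 SD (n = 3 each) and coloured by class, with a line of equal FPKM. Ero1a and P4hb lie below the line at high level, and Hyou1, Manf, Dnajb11 and Selenos lie above it at lower level.

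ERAD begins with the recognition of misfolded glycoproteins. Edem1, Edem2 and Edem3 encode mannosidase-like proteins that mark such chains by trimming mannose. Edem3 had 115, 122 and 110.5 CPM in Ufl1-ko, against 81.3, 49.3 and 49.9 CPM in NC. The groups did not overlap, and Edem3 rose 1.92-fold (log2 fold change 0.94, SE 0.17, adjusted p = 0.0011). Leaving out single libraries, its log2 fold change ran from 0.82 to 1.23, the latter without NC replicate 1. Edem1 had 139, 144 and 137 CPM in Ufl1-ko, against 110.2, 87.9 and 95.3 CPM in NC. It also rose, by less (log2 fold change 0.51, SE 0.09, adjusted p = 0.000651). Edem2 had 39.9, 40.3 and 45.2 CPM in Ufl1-ko, against 37.2, 40.0 and 40.0 CPM in NC. Those values overlapped between the groups and did not pass (log2 fold change 0.10, SE 0.08, adjusted p = 0.314). The trimmed glycans are read by the lectins OS-9 and XTP3-B. Os9 had 123, 118 and 130.4 CPM in Ufl1-ko, against 152, 183 and 171 CPM in NC. It was the only ERAD gene of the list to fall (log2 fold change -0.45, SE 0.08, adjusted p = 0.00103). Erlec1, which encodes XTP3-B, had 59.9, 63.1 and 63.3 CPM in Ufl1-ko, against 52.2, 59.5 and 62.2 CPM in NC and did not pass (log2 fold change 0.10, SE 0.08, adjusted p = 0.3).

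Recognised chains leave through the SEL1L-HRD1 complex, in which HRD1 is the ubiquitin ligase. Syvn1, which encodes HRD1, had 75.9, 70.0 and 72.2 CPM in Ufl1-ko, against 46.1, 37.7 and 39.1 CPM in NC. The groups were well apart, and Syvn1 rose 1.77-fold (log2 fold change 0.83, SE 0.09, adjusted p = 5.36e-05). Sel1l, its adaptor, had 124, 119 and 116 CPM in Ufl1-ko, against 114, 78.0 and 77.8 CPM in NC. NC replicate 1 came close to the Ufl1-ko libraries, and the rise was smaller (log2 fold change 0.41, SE 0.14, adjusted p = 0.0238). The Sel1l call ended without any of the Ufl1-ko replicates or without NC replicate 2 or 3, with an adjusted p of up to 0.0908. Without NC replicate 1 its log2 fold change was 0.63. Herpud1, a scaffold of the complex that is usually a strong UPR target, had 62.8, 59.5 and 62.0 CPM in Ufl1-ko, against 77.5, 59.7 and 64.8 CPM in NC. The groups overlapped and it did not pass (log2 fold change -0.13, SE 0.10, adjusted p = 0.261). The derlins form part of the channel. Derl1 had 143, 150.2 and 139.5 CPM in Ufl1-ko, against 149, 136 and 142 CPM in NC and did not pass (log2 fold change 0.02, SE 0.06, adjusted p = 0.823). Derl2 had 47.4, 48.6 and 43.3 CPM in Ufl1-ko, against 45.6, 42.4 and 40.7 CPM in NC. Its log2 fold change of 0.11, SE 0.08 did not pass either (adjusted p = 0.244), but it was called higher without NC replicate 1 (0.17, adjusted p = 0.033).

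Downstream of the channel, the largest rise was that of Selenos, which encodes VIMP, a selenoprotein that recruits the ATPase p97 to the ER membrane. Selenos had 49.2, 53.4 and 52.3 CPM in Ufl1-ko, against 19.5, 19.7 and 19.1 CPM in NC. Every Ufl1-ko library was above every NC library, a 2.66-fold rise (log2 fold change 1.41, SE 0.08, adjusted p = 1.25e-06). Vcp, which encodes p97 itself, had 477, 505 and 467 CPM in Ufl1-ko, against 276, 239.9 and 249 CPM in NC. It had the highest FPKM of the ERAD genes in both groups and rose 1.89-fold with no overlap (log2 fold change 0.92, SE 0.07, adjusted p = 6.61e-06). The ubiquitin-conjugating enzymes of the pathway rose by less. Ube2j1, which is anchored in the ER membrane, had 169, 171 and 159.6 CPM in Ufl1-ko, against 126, 115 and 109 CPM in NC (log2 fold change 0.52, SE 0.07, adjusted p = 0.000208). Ube2g2, which is recruited from the cytosol, had 66.4, 71.4 and 64.1 CPM in Ufl1-ko, against 55.9, 51.8 and 55.2 CPM in NC (log2 fold change 0.31, SE 0.07, adjusted p = 0.00458).

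Related or partner genes were then compared within each library as the log2 ratio of their FPKM values (each plus 0.1), which does not depend on scaling between libraries. In all 11 pairs the groups did not overlap, and each pair reached p = 0.1 by exact two-sided permutation over 3 against 3 libraries, the smallest value that design allows (0.1 also after adjustment over the pairs). No pair can therefore pass 0.05 here. The pairs were chosen with results known, the same ratios were not computed for other gene pairs, and 71.7% of single genes already had no overlap, so nothing is read from the count of pairs. The Creld2 to Creld1 log2 ratio was 0.60, 0.67 and 0.28 in Ufl1-ko, against -1.12, -1.59 and -1.72 in NC, so the more abundant gene of the pair was Creld2 in Ufl1-ko and Creld1 in NC. The Ero1a to Ero1b log2 ratio averaged 6.52 ± 0.04 in Ufl1-ko and 8.10 ± 0.13 in NC (SD, n = 3 each, as for the pairs that follow), a difference of -1.58. Hyou1 to Hspa5 gave -3.15 ± 0.05 in Ufl1-ko and -4.37 ± 0.07 in NC, a difference of 1.22. For Manf to Hspa5 the averages were -2.67 ± 0.07 in Ufl1-ko and -3.62 ± 0.20 in NC, a difference of 0.94. Hspa5 mRNA thus stayed far more abundant than that of either partner in both groups, with a lower ratio of Hspa5 to each partner in Ufl1-ko.

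The other pairs differed by smaller amounts. Calr to Canx averaged 1.11 ± 0.02 in Ufl1-ko and 0.61 ± 0.04 in NC. Os9 to Erlec1 averaged 0.78 ± 0.07 in Ufl1-ko and 1.31 ± 0.08 in NC, and Edem1 to Edem3 0.35 ± 0.04 in Ufl1-ko and 0.84 ± 0.25 in NC. The difference was 0.42 for Edem1 to Edem2, 0.40 for Sdf2l1 to Sdf2 and -0.23 for Hspa5 to Hspa13. Derl1 to Derl2 differed by -0.32 in FPKM but by only -0.10 in CPM (exact permutation p = 0.2), so that value rests on the length correction in the deposited FPKM.

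**Figure D5:**
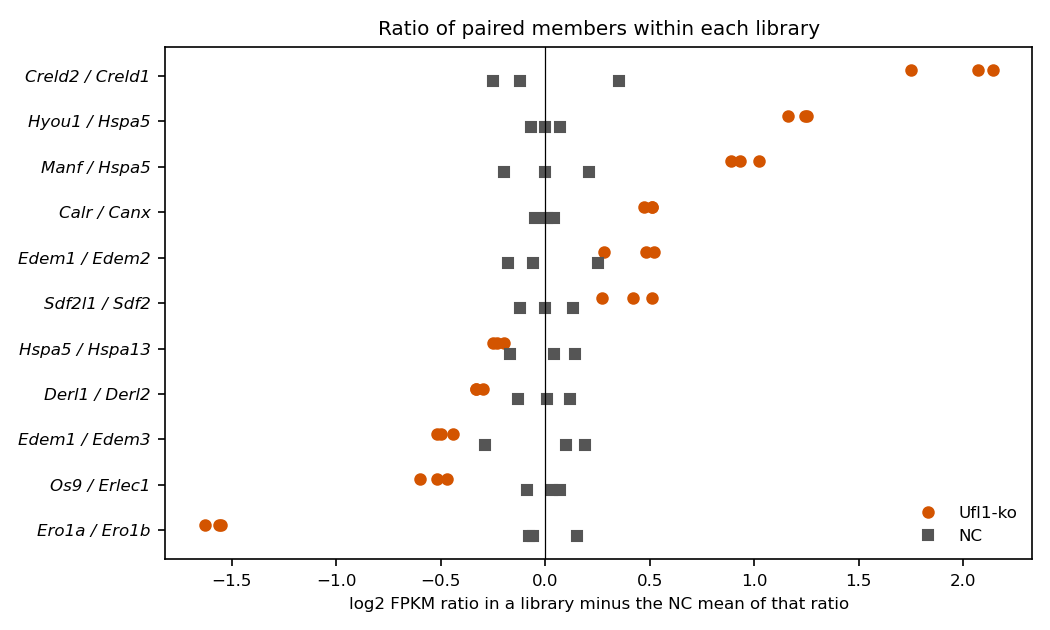
Log2 FPKM ratio of 11 pairs of related or partner genes in each of the 3 Ufl1-ko libraries (circles) and 3 NC libraries (squares), minus the NC mean of that ratio. Creld2 to Creld1, with a mean difference of 1.99, and Ero1a to Ero1b, with -1.58, stand farthest from the NC libraries.

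A wider list of other ER folding and ERAD genes, 71 with a row and 70 tested, was mixed. Of these 30 rose, 18 fell and 22 missed the threshold (median log2 fold change 0.10, or 0.05 without NC replicate 1 and 0.17 without NC replicate 3). The shares were 42.9% that rose and 25.7% that fell, against 33.3% and 33.4% of all genes tested. The number that fell was 11 with library-size scaling, where 25.5% of all genes fell, and 9 in each fit of the FPKM values, where 19.3% to 23.5% of all genes fell. By log2 fold change, the 5 that rose most were Rnf103 and Ubxn8, both of ERAD (1.14 and 1.13), the proline isomerase Fkbp14 (1.13), the vitamin K epoxide reductase-like Vkorc1l1 (1.03) and the glycoprotein glucosyltransferase relative Uggt2 (0.94). The 5 that fell most were Vkorc1 (-0.96), the thioredoxin-related Tmx4 (-0.94) and Txndc16 (-0.81), the J protein Dnajc1 (-0.77) and the calcium-binding Rcn3 (-0.74). Vkorc1 had 15.1, 14.2 and 14.7 CPM in Ufl1-ko, against 25.1, 30.9 and 29.8 CPM in NC, and Vkorc1l1 had 61.3, 67.3 and 64.3 CPM in Ufl1-ko, against 36.1, 28.2 and 30.1 CPM in NC. These related enzymes, both linked to disulfide formation in the ER, moved in opposite directions.

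The 10 genes of the UPR itself were also mixed, with 5 that rose and 5 that fell. Over all genes tested, 33.3% rose and 33.4% fell, 66.7% in all. The factors Xbp1 (log2 fold change 0.62) and Atf6b (0.98), the PERK gene Eif2ak3 (0.60) and the proteases Mbtps1 (0.49) and Mbtps2 (0.32), which cut ATF6, rose. The IRE1 gene Ern1 (-0.41), Atf6 (-0.76), Atf4 (-1.56), Ddit3 (-2.22) and Ppp1r15a (-0.64) fell. Ddit3, which encodes the stress factor CHOP, had 37.9, 31.5 and 34.3 CPM in Ufl1-ko, against 125, 200.3 and 159 CPM in NC. Atf4, the factor that PERK signalling makes, had 263, 243 and 241 CPM in Ufl1-ko, against 619.5, 823 and 759 CPM in NC. Both were lower in every Ufl1-ko library while most chaperones were higher. Splicing of Xbp1 and cleavage of ATF6 are not measured by gene counts.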

How the data were processed

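RNA of 3 Ufl1-ko and 3 NC libraries was compared. The deposited tables hold, per library and gene, estimated counts (7.29% to 8.09% of rows not whole within 0.001) and FPKM, per the file headers. Per the submitters' processing notes, featureCounts 2.0.0, STAR 2.7.7a and fastp 0.20.1 were used. The notes also name the builds GRCh38, hg38 and mm10, with no role for any tool or build. How fractional counts arose, the annotation and the strand setting were not given in the sources used here. Without strand, overlapping and antisense genes cannot be told apart, and close copies may share reads.

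Of 22274 rows, 1225 name no gene (0.594% to 0.661% of counts) and were left out. Rows were summed by symbol ignoring case (1045 names on more than 1 row), rounded, and tested with edgeR 4.0.16 in R 4.3.3 (quasi-likelihood, genotype only, TMM, filterByExpr, two-sided, Benjamini-Hochberg over 12224 genes, threshold 0.05). The SE is the log2 fold change over the square root of F. CPM uses TMM-scaled totals. Replicate numbers did not pair the samples. Members, lists and motifs were chosen with earlier results of these data known. By rule, library values are given for members changed at least 1.5-fold, members of the pairs, Hspa5 and Hsp90b1; those of the other tested members were added after their values were seen. Of the other ER genes, the 5 highest and 5 lowest called ones with an average log2 CPM of at least 2 are named, and of the UPR all 10. Values of Vkorc1, Vkorc1l1, Ddit3 and Atf4 per library and the 3 ERSE genes outside the list and Alg12 were chosen after values were seen.

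In a simulation of the Ufl1-ko to NC contrast (12135 genes passing the filter), the test called 66.7% of 66 genes with a 1.5-fold change, 93.8% of 65 with a 2-fold and 98.4% of 64 with a 4-fold change, and 0.117% of 11940 unchanged genes. Most genes were unchanged there, unlike in the data. Alternatives were DESeq2 1.42.0, limma-voom and limma (3.58.1) on log2(FPKM + 1) or log2(FPKM + 0.1), other scalings and filters, rows tested separately, a 1.5-fold null, a replicate block and leaving out each library. Summaries and figures used Python 3.11.15.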

Additional observations from a re-analysis of the deposited data

How the results depend on the processing

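All 26 members that rose and all 5 that fell kept their calls with DESeq2, limma-voom, every other scaling, both other filters, separate rows, the FPKM fits and the replicate block. Scaling sets the zero. The medians of all members, chaperones, disulfide enzymes, ERAD genes and other ER genes were 0.56, 0.57, 0.58, 0.54 and 0.28 with library size alone, 0.54, 0.55, 0.54, 0.54 and 0.28 on log2(FPKM + 1), 0.57, 0.57, 0.56, 0.57 and 0.29 on log2(FPKM + 0.1), and 0.50, 0.55, 0.54, 0.49 and 0.27 on log2(FPKM + 1) without the filter. Canx, Erp44, Edem2, Derl1, Derl2 and Erlec1 were then called higher in each of these 4 fits, and the other ER genes that fell numbered 11 with library size and 9 with any FPKM fit. Signs of 5 uncalled members turned in those 4 fits, to 0.06 or 0.07 for Hsp90b1, 0.07 or 0.08 for Sdf2, 0.05 for Ppib, 0.13 or 0.07 for Erp29 and 0.05 or 0.09 for Herpud1. Leaving out each library, Erp29 ran from -0.08 to 0.03 and Derl1 from -0.01 (without Ufl1-ko replicate 2 or NC replicate 2) to 0.06. The cause of these turns was not tested beyond the shift in the median of all genes.

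Against a fold change of 1.5, a stricter null, 13 members rose and 2 fell. Of all genes, 1214 rose (9.93%) and 1587 fell (13.0%). By class, 4 chaperones rose and 1 fell, 5 disulfide enzymes rose and 1 fell, and 4 ERAD genes rose and 0 fell. Among the other ER genes 8 rose and 3 fell. Leaving out each library in turn, 22 to 27 members rose and 5 to 7 fell, with a median of 0.32 to 0.49. Of all genes, 3488 to 4783 then rose (28.3% to 38.6%) and 3607 to 4594 fell (29.3% to 37.1%). The medians ran from 0.36 to 0.50 for chaperones (1 to 3 fell), 0.39 to 0.48 for disulfide enzymes, 0.30 to 0.46 for ERAD genes and 0.05 to 0.17 for other ER genes. With the replicate block, 26 members rose and 5 fell with a median of 0.40, and of all genes 3892 rose (31.8%) and 3910 fell (32.0%). The numbers share no source in the labels, and deviations of same-numbered libraries correlated at 0.026, -0.206 and 0.034. The block changed no member's call.

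Having 3 libraries a group, with NC replicate 1 apart, limits small changes. The calls of Dnajb9, Sdf2l1, Ero1b and Sel1l ended without some single library, and Derl3 was too low in count to test.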

Other observations

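The ratio of the deposited count to FPKM, scaled to library size, gives a length that the authors' FPKM implies for each gene. It differed between the groups by more than 0.1 on the log2 scale for 1 of the 42 members, Derl2, where 12.7% of 10188 genes did so. For Derl2 the implied length was 2317, 2302 and 2158 bases in Ufl1-ko, against 2911, 2503 and 2528 bases in NC. Its log2 fold change was 0.52 in FPKM and 0.29 in counts scaled by library size. The transcripts behind Derl2 were not resolved here.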
